A study of Mus musculus with 9 samples.

Results

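The 34 genes described here are genes of T and B lymphocytes, chosen as a list of symbols and matched exactly in the FPKM tables of brown adipose tissue, the heat-producing fat depot, from GHRH-KO and WT mice. All 34 were found among the 24356 gene symbols of each table, and all were above 0 FPKM in at least 1 library. Of these, 8 are B cell genes, 17 are T cell genes and 3 belong to lymphocyte homing and lymphoid tissue. The other 6 are broad genes of white blood cells or of lymphocytes, and are called leukocyte-wide here for short. The study compared mice lacking growth hormone releasing hormone (GHRH), the hypothalamic signal for growth hormone release, with WT littermates from a mixed background of C57BL6 and 129SV. Each library is the brown adipose tissue of 1 mouse: KO females (n = 2), KO males (n = 2), WT females (n = 3) and WT males (n = 2). All mice received the same chow, and their ages are not given in the sources used here. The libraries are called by genotype, sex and a number, and KO male 1 is the library titled KO_M_10722. Levels are in FPKM, in which fragments are divided by transcript length and by the size of the library, which allows genes of different length to be compared.

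A B cell recognises antigen with a membrane immunoglobulin that signals through CD79A and CD79B, and coreceptors such as CD21 (encoded by *Cr2*) and CD22 tune that signal. A T cell recognises antigen with a receptor that signals through the CD3 chains and the zeta chain (*Cd247*), after which the kinases LCK and ZAP70 and the adaptor LAT pass the signal on. CD4 and CD8 mark the helper and cytotoxic branches. In resting adipose tissue lymphocytes are a minor population, while lymph nodes, spleen and thymus consist largely of lymphocytes.

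RefSeq promoter sequences (GRCm38.p6) were available for 22 of the 34 genes. The 250 bases before the RefSeq start are shown for *Cd79a* of the B cell genes, *Cd3e* of the T cell genes and *Ltb* of the lymphoid tissue genes. They were picked because each was highest in KO male 1 and holds the ETS motif, so the shared motif is fixed by the choice. Capitals mark the ETS motif AGGAAG and the Ikaros motif TGGGAA, each searched on both strands, so that CTTCCT is the ETS motif read from the other strand. *Cd79a* lies on the plus strand at chr7:24897247-24897496, *Cd3e* on the minus strand at chr9:45009612-45009861 and *Ltb* on the plus strand at chr17:35194257-35194506.
Cd79a: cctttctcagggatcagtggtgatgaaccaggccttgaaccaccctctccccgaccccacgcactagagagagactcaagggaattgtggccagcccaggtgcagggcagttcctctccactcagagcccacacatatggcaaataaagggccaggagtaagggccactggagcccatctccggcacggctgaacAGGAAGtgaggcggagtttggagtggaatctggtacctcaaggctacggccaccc
Cd3e: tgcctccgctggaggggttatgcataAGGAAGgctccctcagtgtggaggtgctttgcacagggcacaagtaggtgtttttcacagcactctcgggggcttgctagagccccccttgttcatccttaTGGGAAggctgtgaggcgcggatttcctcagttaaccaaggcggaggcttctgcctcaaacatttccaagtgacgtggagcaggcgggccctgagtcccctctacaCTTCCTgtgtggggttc
Ltb: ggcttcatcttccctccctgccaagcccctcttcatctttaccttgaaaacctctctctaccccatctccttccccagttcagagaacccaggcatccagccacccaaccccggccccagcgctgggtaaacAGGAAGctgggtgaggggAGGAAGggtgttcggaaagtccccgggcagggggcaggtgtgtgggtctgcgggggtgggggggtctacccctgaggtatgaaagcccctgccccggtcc
GENCODE places the starts of these genes farther upstream, so that 116 bases of the *Cd79a* stretch, 16 of that of *Cd3e* and 68 of that of *Ltb* lie inside the gene by that annotation. The ETS match of *Cd79a* and 1 of the 3 matches of *Cd3e* reach into those bases. A gene was counted as holding a motif where any of its listed promoters did. The ETS motif was in the 250 bases of 16 of the 22 genes (72.7%), against 32.3% of 27025 genes, and the Ikaros motif in 10 of 22 (45.5%) against 24.1%. The EBF core CCCNNGGG was in 5 of 22 (22.7% against 13.4%), the RUNX motif TGTGGT in 3 (13.6% against 15.9%) and the TATA box TATAAA in 3 (13.6% against 14.3%). The octamer ATGCAAAT was in 0 of 22, against 1.81% of all genes. These are matches of letters and are given as a description.

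For a reason that was not tested, *Ghrh*, the gene targeted in the KO mice, was above 0 only in the libraries labelled KO. Its level was 0.846 in KO female 1, 0.233 in KO female 2, 0.799 in KO male 1 and 0.470 FPKM in KO male 2, whereas the 5 WT libraries were all at 0, so every direction given here is between the libraries labelled KO and those labelled WT. KO male 1 stood apart from the other 8 libraries over all genes, with Spearman correlations of 0.924 to 0.934 against them where those 8 had 0.958 to 0.991 among themselves. Its relative depth was 1.14, within the 0.917 to 1.14 of the libraries. *Ucp1*, the uncoupling protein that defines brown fat, was at 2164 FPKM in KO male 1 and at 1357 to 2992 in the others. Each comparison is therefore given with and without KO male 1.

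All 34 genes had their highest level in KO male 1. Their summed level there was 663 FPKM, against 8.39 to 21.6 in the other 8 libraries. The ratio of KO male 1 to the highest of the other 8 ran from 6.67 for *Cd247* to 140 for *Ccr7*, with a median of 34.7. Among the 14675 genes above 0 in every library, KO male 1 was the highest library for 28.3% and at least 5 times the next library for 2.3%, and the 24 lymphocyte genes among them were all at least 5 times the next. The genes were chosen with earlier results of these data known, so this contrast with all genes is a description and not a test. The heat map shows it as a single bright column beside 8 dark ones.

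**Figure D1:**
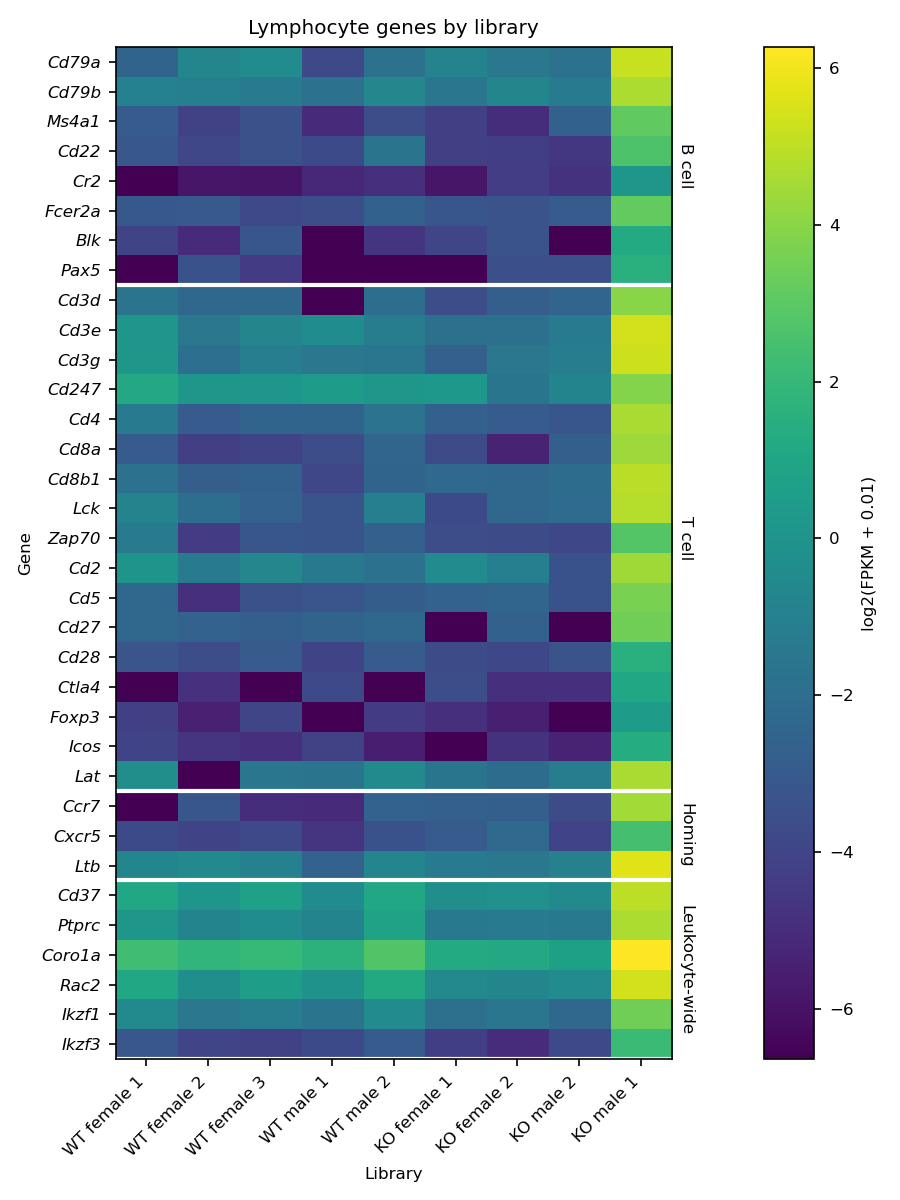
Level of the 34 lymphocyte genes (rows, grouped by role) in the 9 libraries (columns), as log2(FPKM + 0.01). KO male 1, the last column, is the highest library for all 34 genes.

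The B cell genes summed to 92.6 FPKM in KO male 1 and to 0.517 to 1.504 in the other 8 libraries. *Cd79a* (chr7:24897381-24902197), the signalling chain of the B cell receptor, was at 36.8 FPKM in KO male 1, at 0.542, 0.354 and 0.283 in KO female 1, KO female 2 and KO male 2, at 0.172, 0.601 and 0.728 in the WT females and at 0.0618 and 0.271 in the WT males. Its KO mean was 9.48 ± 18.2 FPKM (SD, n = 4) and 0.393 ± 0.134 (n = 3) without KO male 1, beside 0.367 ± 0.285 (n = 5) in WT. The 3 KO libraries other than KO male 1 lay within the WT range in this gene. *Cd79b*, its partner chain, was at 25.5 FPKM in KO male 1 and at 0.278 to 0.609 in the others. *Ms4a1*, which encodes the B cell surface protein CD20, was at 8.57 against 0.0190 to 0.152 FPKM. *Fcer2a*, the low-affinity IgE receptor CD23 of mature B cells, had the largest ratio of the 8, 60.1 (9.02 FPKM in KO male 1).

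*Cd22*, an inhibitory coreceptor, had the smallest ratio among the B cell genes, 20.5. It was at 6.25 FPKM in KO male 1, at 0.0440, 0.0433 and 0.0323 in the other KO libraries, at 0.105, 0.0572 and 0.0805 in the WT females and at 0.0638 and 0.305 in the WT males. The 3 other KO libraries were thus all below the 5 WT libraries, an order that 13.5% of all genes tested share. *Cr2* (1.14 FPKM in KO male 1), *Blk*, a B cell kinase (2.41), and *Pax5*, the factor that maintains B cell identity (2.90), were at 0 in at least 1 other library and at most at 0.0409, 0.0996 and 0.0838 FPKM there.

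The 17 T cell genes summed to 302 FPKM in KO male 1 and to 2.79 to 8.84 in the others. *Cd3e* (chr9:44998740-45009627), a chain of the receptor complex, was at 41.7 FPKM in KO male 1, at 0.264, 0.259 and 0.388 in KO female 1, KO female 2 and KO male 2, at 1.10, 0.343 and 0.575 in the WT females and at 0.762 and 0.413 in the WT males. The other KO libraries overlapped with WT only through KO male 2 and WT female 2. *Cd3g* was at 38.7 FPKM against 0.147 to 1.11, and *Cd3d* at 15.7 against 0 to 0.308. *Cd247*, the zeta chain, had the smallest ratio of all 34 genes. It was at 14.6 FPKM in KO male 1 and already at 0.313 to 2.19 elsewhere. Its exons overlap those of *Pou2f1* on the opposite strand, and strand use in the counting is not given in the sources used here.

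The coreceptors of both T cell branches were high in KO male 1. *Cd4* was at 24.9 FPKM there and at 0.0980 to 0.396 in the others. *Cd8a* (chr6:71373427-71379173) was at 20.8 FPKM in KO male 1, at 0.0713, 0.0140 and 0.138 in KO female 1, KO female 2 and KO male 2, at 0.123, 0.0441 and 0.0517 in the WT females and at 0.0729 and 0.178 in the WT males, with no separation of the genotypes outside KO male 1. Its partner *Cd8b1* was at 30.5 against 0.0574 to 0.287 FPKM. The ratio of *Cd4* to *Cd8a* was 1.20 in KO male 1 and 0.708 to 9.02 in the others, and that of *Cd3e* to *Cd79a* was 1.14 against 0.487 to 12.3. The ratios in the others rest on values near the floor. The 9.02 has *Cd8a* at 0.0140 FPKM in KO female 2, and the 12.3 has *Cd79a* at 0.0618 FPKM in WT male 1, an estimated 2 fragments.

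The signalling genes behind the receptor were high in the same library. *Lck* was at 29.0 FPKM in KO male 1 against 0.0659 to 0.532, *Zap70* at 6.96 against 0.0371 to 0.373 and *Lat* at 24.8 against 0 to 0.821. *Cd2*, an adhesion receptor, was at 21.6 against 0.0840 to 1.02 FPKM, and *Cd5*, which dampens receptor signals, at 12.9 against 0.0229 to 0.189. Of the costimulatory and regulatory genes, *Cd27* was at 10.9 FPKM in KO male 1, *Cd28* at 2.89, *Icos* at 2.56, the inhibitory receptor *Ctla4* at 2.05 and *Foxp3*, the factor of regulatory T cells, at 1.38, and none of the 5 exceeded 0.198 FPKM in another library. Exons of *Foxp3* overlap those of *Ccdc22* on the opposite strand.

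The 3 homing and lymphoid tissue genes summed to 77.6 FPKM in KO male 1 against 0.204 to 0.846, the largest ratio to the highest of the other libraries among the 4 groups. *Ccr7* (chr11:99144196-99155077), the chemokine receptor that brings naive T cells and dendritic cells to lymph nodes, was at 22.3 FPKM in KO male 1, at 0.143, 0.140 and 0.0700 in the other KO libraries, at 0, 0.0991 and 0.0218 in the WT females and at 0.0204 and 0.160 in the WT males. *Cxcr5*, the receptor that guides B cells into follicles, was at 5.44 against 0.0293 to 0.202 FPKM, and its exons overlap those of *Bcl9l* on the opposite strand. *Ltb*, a cytokine needed for lymph node formation, was at 49.9 against 0.155 to 0.658 FPKM.

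The leukocyte-wide genes were the most abundant outside KO male 1, summing to 3.67 to 13.8 FPKM in the other 8 libraries and to 191 in KO male 1. *Coro1a* (chr7:126699773-126707787), an actin regulator of blood cells, was at 77.1 FPKM in KO male 1, at 2.33, 2.23 and 1.62 in KO female 1, KO female 2 and KO male 2, at 4.86, 3.62 and 4.07 in the WT females and at 3.17 and 6.81 in the WT males. *Ptprc*, the leukocyte surface phosphatase CD45, was at 25.6 FPKM in KO male 1, at 0.367, 0.378 and 0.360 in the other KO libraries, at 1.14, 0.565 and 0.779 in the WT females and at 0.551 and 1.74 in the WT males. *Rac2*, a GTPase of blood cells, was at 41.2 FPKM in KO male 1, at 0.671, 0.602 and 0.729 in the other KO libraries, at 2.05, 0.865 and 1.43 in the WT females and at 0.974 and 2.33 in the WT males. In these 3 genes the KO libraries other than KO male 1 all lay below every WT library, as they did for 13.5% of all genes tested. *Cd37*, a tetraspanin of lymphocytes, was at 31.8 FPKM in KO male 1 against 0.697 to 2.14, and its exons overlap those of *Tead2*. *Ikzf1* and *Ikzf3*, related lymphoid transcription factors, were at 10.9 against 0.195 to 0.751 FPKM and at 4.47 against 0.0209 to 0.125.

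**Figure D2:**
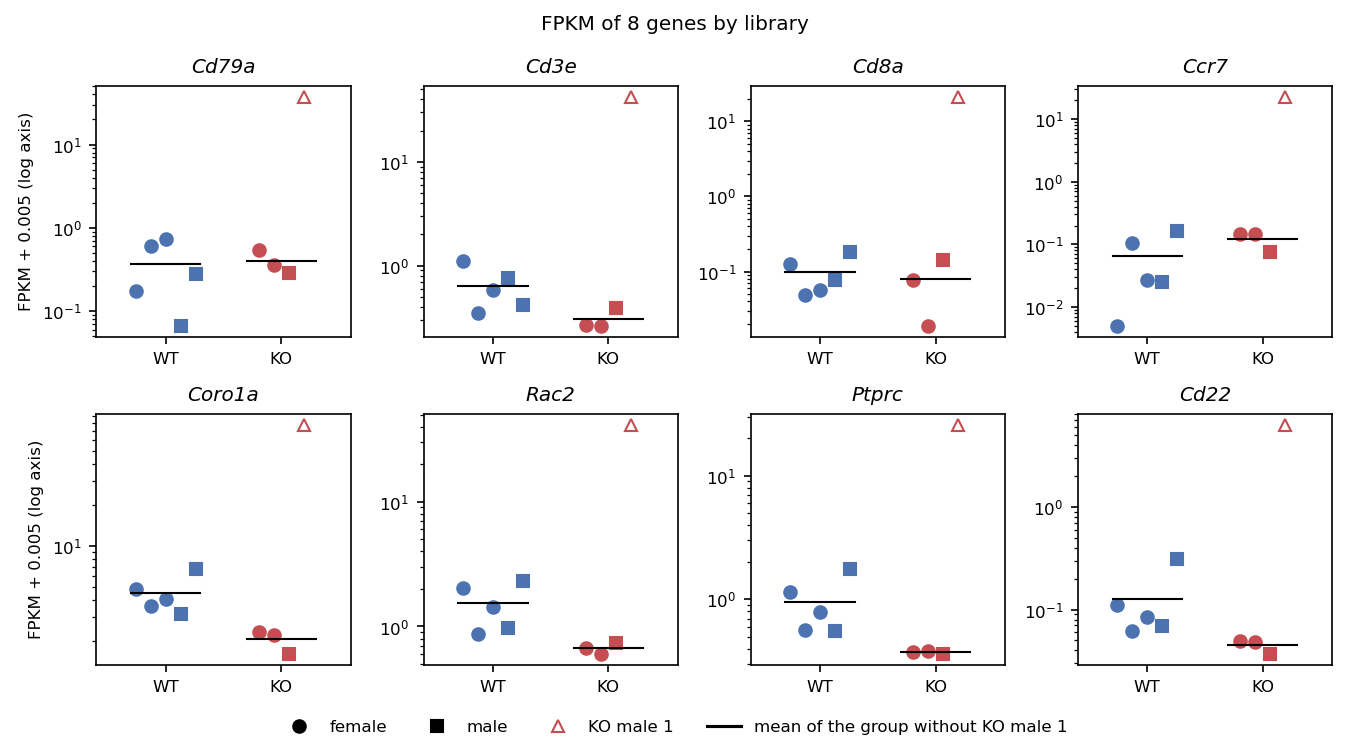
FPKM + 0.005 (log axis) of 8 genes in each library, by genotype, with circles for females, squares for males, an open triangle for KO male 1 and lines for the means without it. In the lower row, Coro1a, Rac2, Ptprc and Cd22, the other 3 KO libraries lie below all 5 WT libraries, as they do for 13.5% of all genes tested.

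The depth behind the low values was small. For 14 of the 34 genes the FPKM in the other 8 libraries, multiplied by the relative depth of each library, were whole multiples of 1 step, within 0.06 of a step, which allowed the number of fragments to be estimated. The search went up to 30 fragments in those 8 libraries, so genes with more could not be recovered. Some low genes were not recovered either, such as *Ctla4*, at most at 0.0759 FPKM in those 8 libraries. The 14 recovered genes rested on 0 to 29 fragments in each of the other 8 libraries, with a median of 5, and on 138 to 2071 in KO male 1. *Cd79a* had an estimated 1212 fragments in KO male 1 and 2 to 22 in the others, and *Cd4* had 2071 against 7 to 29. Differences of a few fragments between the 8 libraries were not detectable at this depth in single genes.

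**Figure D3:**
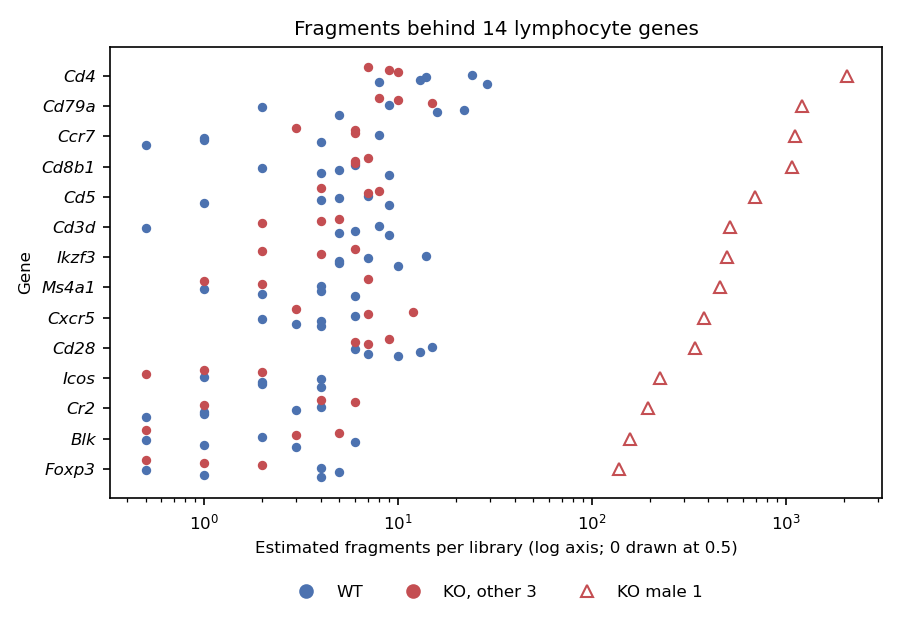
Estimated fragments per library (log axis, with 0 drawn at 0.5) for the 14 genes whose values, scaled by relative depth, are whole multiples of a step, searched up to 30 fragments in the other 8 libraries. KO male 1 (open triangles) has 138 to 2071 fragments, and the other 8 libraries have 0 to 29.

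The first comparison asked whether the genes differed between KO and WT with all 9 libraries, by limma on log2 FPKM with a mean for each genotype and sex, averaged over the sexes. The 24 genes above 0 in every library were tested, and the 10 others were not in this fit. None of the 24 passed an adjusted p of 0.05 in either direction (limma, Benjamini-Hochberg over 14675 genes), where 1.43% of all genes were higher and 2.17% lower in KO, and 0 of the 24 had an unadjusted p below 0.05, against 5.99% of all genes higher and 14.2% lower. All 24 estimates were above 0, with a median log2 difference of 1.08 against -0.07 over all genes. The lowest adjusted p was 0.342 (*Cxcr5*, log2 difference 2.37, SE 1.24). *Cd79a* had a log2 difference of 2.35 (SE 1.34, adjusted p 0.392) and *Coro1a* one of 0.20 (SE 0.99, adjusted p 0.950). The KO and WT libraries overlapped for all 24, where 3.03% of all genes had every KO library higher and 6.04% every KO library lower. When KO male 2 was left out, so that KO male 1 alone stood for the KO males, 20 of the 24 were called higher, against 4.22% of all genes. That fit has 1 KO male, KO male 1, which is taken to vary like the other groups. Because the genes were chosen with earlier results known, its count is a description and says nothing on genotype.

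Without KO male 1 the estimates moved down. Of the 24 genes, 17 were now below 0 (70.8%, against 72.5% of all genes), with a median log2 difference of -0.71 against -0.15 over all genes. Again 0 of the 24 passed the adjusted threshold, where 0.763% of all genes were higher and 2.25% lower, and 7 of 24 (29.2%) had an unadjusted p below 0.05 and a lower estimate, against 20.9% of all genes. The lowest adjusted p was that of *Coro1a* (log2 difference -1.19, SE 0.26, adjusted p 0.0568). *Ptprc* had -1.27 (SE 0.43, adjusted p 0.121), *Cd2* -1.04 (SE 0.36, adjusted p 0.132), *Rac2* -1.07 (SE 0.38, adjusted p 0.139), *Cd22* -1.48 (SE 0.59, adjusted p 0.170), *Cd247* -1.16 (SE 0.47, adjusted p 0.174) and *Ikzf1* -0.99 (SE 0.40, adjusted p 0.174). The KO and WT libraries did not overlap for 4 of the 24, *Cd22*, *Ptprc*, *Coro1a* and *Rac2*, with every KO library lower, and this held for 13.5% of all genes. None had every KO library higher, against 3.98% of all genes.

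By role, all 6 leukocyte-wide genes had estimates below 0 (median -1.03), as did 9 of the 11 T cell genes tested (median -0.61) and 2 of the 5 B cell genes (median 0.16), while both homing genes tested were above 0 (median 0.36). *Cd8b1* (0.67, SE 0.46, adjusted p 0.387) and *Cxcr5* (0.68, SE 0.48, adjusted p 0.402) had the highest estimates. The fit holds 1 KO male, which is taken to vary like the other groups. Leaving out WT male 1 as well, which leaves 1 male of each genotype, gave 5 genes called lower, *Cd22*, *Cd37*, *Ptprc*, *Coro1a* and *Rac2*, and the same fit called 9.57% of all genes lower. Weighting the libraries gave 1, *Coro1a*, where 3.02% of all genes were called lower.

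**Figure D4:**
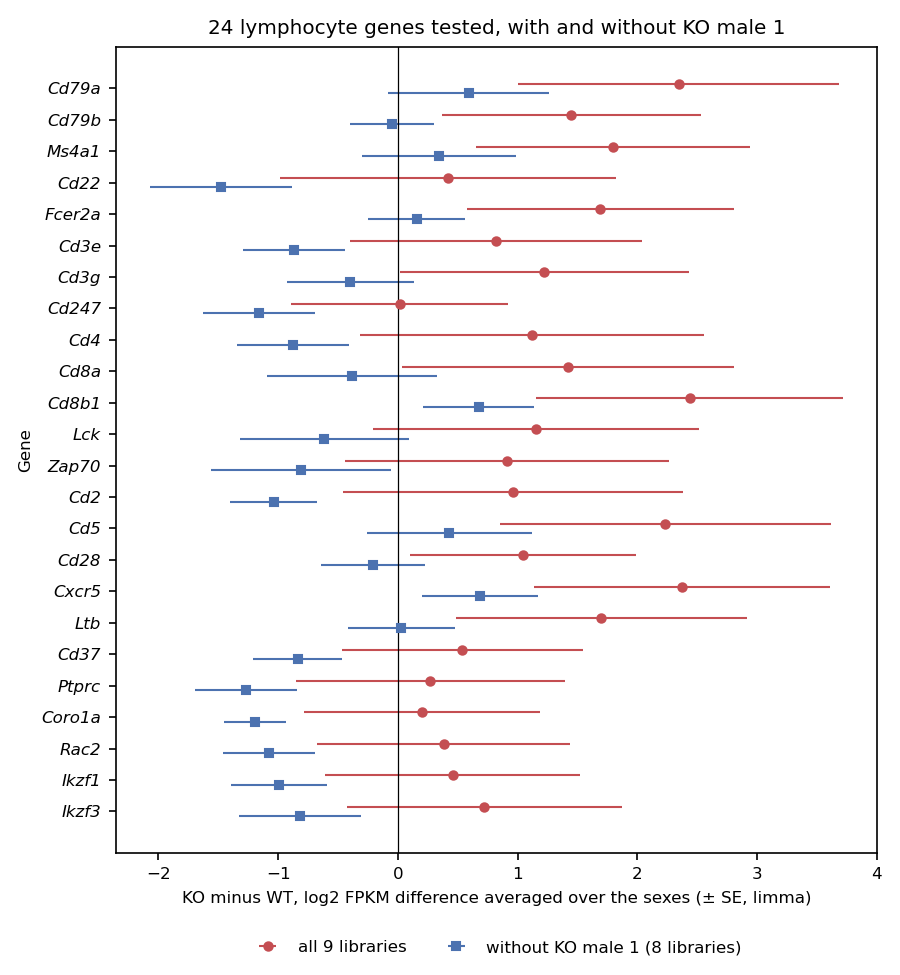
Difference between KO and WT in log2 FPKM, averaged over the sexes, with its SE (limma) for the 24 genes tested, with all 9 libraries (circles) and without KO male 1 (squares). All 24 circles lie above 0 and 17 of the 24 squares lie below 0, and no gene passes an adjusted p of 0.05 in either fit.

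The 10 genes at 0 FPKM in at least 1 library were compared by a two-sided exact permutation test on log2(FPKM + 0.1), a scale that understates changes of low genes. No gene passed an adjusted p of 0.05 over the 10 with or without KO male 1, and the smallest p the test allows is 0.00794 with all 9 libraries and 0.0179 without it, so that 1 gene alone could not pass after adjustment over 10. The lowest p with all libraries was that of *Cr2* (difference 0.996, exact permutation p 0.0397, adjusted p 0.238). Without KO male 1 it was that of *Cd27* (difference -0.99, exact permutation p 0.0357, adjusted p 0.357), which was at 0, 0.1496 and 0 FPKM in the 3 KO libraries and at 0.140 to 0.198 in WT.

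Sex and the interaction of sex and genotype are terms of the study's model. In females, 19 of the 24 genes (79.2%) had estimates below 0, against 60.2% of all genes, with a median log2 difference of -0.75. None passed an adjusted p of 0.05 (limma), where 0.0613% of all genes were called higher and 0.0681% lower. At an unadjusted p below 0.05, 3 of 24 (12.5%) were lower and 1 was higher, against 12.0% and 5.62% of all genes. In males, with KO male 1, all 24 estimates were above 0 (median 2.83) and 0 were called, with 0.0% of all genes called higher and 0.0136% lower. At an unadjusted p below 0.05, 3 of the 24 were higher, against 4.86% of all genes, and 0 were lower, against 11.7%. The interaction had a median of 3.15 with KO male 1 and 0.08 without it, and male minus female one of 1.63 and -0.12, with 0 of the 24 genes called in each of the 4 fits. At an unadjusted p below 0.05 the interaction had 1 gene higher, against 1.98% of all genes, and without KO male 1 it had 1 higher (1.23% of all genes) and 1 lower (5.74%). Male minus female had 1 gene higher (3.36% of all genes), and without KO male 1 it had 1 lower (8.96%). Over all genes 0.0% were called higher in each of these 4 fits, and the share called lower was 0.0% for the interaction, 0.0136% for it without KO male 1, 0.0136% for male minus female and 0.0477% for that without KO male 1.

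Other genes of the lymphocyte pathways, from lists also chosen with earlier results known, were mostly highest in the same library. Of 24 T cell receptor signalling genes, 23 were highest in KO male 1, with *Lcp2* at 7.63 FPKM against at most 0.619 and the widely expressed *Csk* at 21.7 against 9.75. Of 20 B cell receptor signalling genes, 19 were highest there, with *Syk* at 7.30 against at most 1.04 FPKM. Of 18 lymphocyte transcription factors 14 were highest in KO male 1, *Spib* among them at 9.999 against 0.134 FPKM, while *Ebf1*, which adipocyte lineage cells also use, was at 10.8 against 12.2 to 27.0. Without KO male 1 the fit called 0 of the 18 tested T cell receptor signalling genes, 1 of the 18 tested B cell receptor signalling genes (*Cd81*, lower) and 0 of 16 transcription factors. Over all genes it called 2.25% lower and 0.763% higher.

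Genes of lymphoid tissue and of lymphocyte stages were looked at in the same way. Of 16 lymphoid chemokine and homing genes, 12 were highest in KO male 1, 7 of them at least 5 times the next library. They summed to 247 FPKM there against 43.7 to 93.1 in the others. *Glycam1*, a ligand made by the vessels through which lymphocytes enter lymph nodes, was at 37.0 FPKM in KO male 1 and listed at 0 in the other 8 libraries. *Cxcl13*, a follicle chemokine, was at 9.60 FPKM there and at 0.0412 to 7.61 in the others, and *Ccl19* was listed at 0 in all 9, as were *Ccl21a* and *Ccl21b*, which are named after their values were seen. The thymocyte genes *Rag1* and *Rag2* were at 0.0162 and 0.0218 FPKM in KO male 1, and the list as a whole summed to 48.1 FPKM there against 49.1 to 72.7. Of its 11 genes, however, 5 were highest in KO male 1, 3 of them at least 5 times the next library. Of the plasma cell and immunoglobulin list 6 of 12 genes were in the tables, with *Jchain* at 34.9 against at most 3.53 FPKM. The germinal centre list summed to 29.3 against 26.9 to 55.7 FPKM, but 3 of its 7 genes found were highest in KO male 1. Of these, 2 were at least 5 times the next library.

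Some lists of markers of other cell types had their highest sum in KO male 1, and others did not. Natural killer cell genes summed to 40.1 FPKM in KO male 1 against 0.374 to 3.27, macrophage genes to 558 against 46.5 to 179, dendritic cell genes to 20.6 against 2.58 to 11.3 and MHC class II genes to 1520 against 106 to 412, with 10 of 10 highest there. Within the macrophage list 9 of 12 were highest in KO male 1, led by *Lyz2* (354 against at most 70.6 FPKM), but the defining marker *Adgre1* was at 2.49 against 0.493 to 2.02. Neutrophil genes summed to 20.2 against 0.403 to 25.3, where *S100a8* and *S100a9* were highest in WT male 2, but 5 of the 7 in the tables were highest in KO male 1 and 3 of them at least 5 times the next library. These were *Ngp*, *Mpo* and *Camp*, named after their values were seen. Mast cell genes (21.0 against 4.98 to 26.2) were within the range of the others. Cell division genes were highest there in 19 of 20 (57.1 against 20.2 to 33.6), and skeletal muscle genes in 8 of 10 (10167 against 360 to 5178, *Acta1* at 2693). Endothelial and lymphatic genes summed to 104 against 83.7 to 142, though 3 of the 8 were highest in KO male 1. These were *Lyve1* (9.71 against at most 2.85 FPKM), *Prox1* (0.283 against 0.0826) and *Pdpn* (2.54 against 2.52), named after their values were seen. Brown adipocyte genes (6393 against 6016 to 8274) were within the range, and white adipocyte genes were below it (2178 against 2275 to 7165). The part of these lists in the lymphocyte result was not tested.

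**Figure D5:**
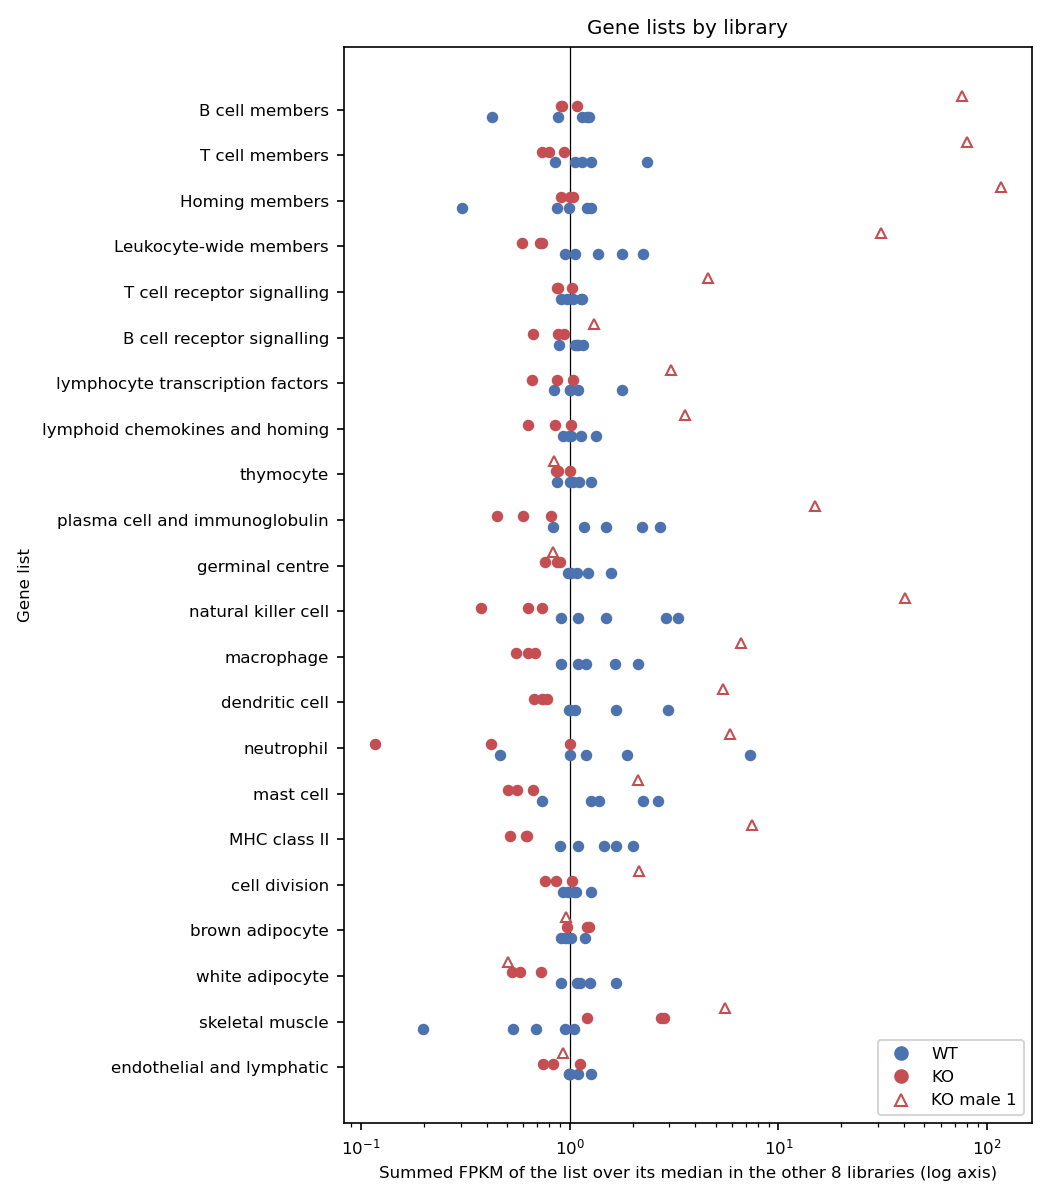
Summed FPKM of each gene list in each library, divided by its median in the other 8 libraries (log axis), with filled points for WT and KO and open triangles for KO male 1. In the rows of the 4 groups of lymphocyte genes KO male 1 lies to the right of all other libraries, and in the row of brown adipocyte genes it lies among them.

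The summed levels of these lists without KO male 1 are given beside the leukocyte-wide genes, with no test of a list. The fit behind the calls below holds 1 KO male. In it 72.5% of all genes had estimates below 0, and 2.25% were called lower and 0.763% higher. Macrophage genes summed to 46.5 to 57.4 FPKM in KO against 76.3 to 179 in WT, with all 12 tested estimates below 0 and 3 called lower (*Cd14*, *Cd163* and *Mertk*). MHC class II genes summed to 106 to 127 against 184 to 412 (*H2-Aa* called lower), and white adipocyte genes to 2275 to 3135 against 3929 to 7165 (*Car3* called lower). Skeletal muscle genes summed to 2217 to 5178 in KO against 360 to 1915 in WT, with 0 called. In the mast cell list *Tpsb2* was called lower. Of the 18 lists, 8 had every KO library below every WT library in their summed level and 1, skeletal muscle, had every KO library above. Among single genes tested, 13.5% had every KO library lower and 3.98% every KO library higher. The 8 were the macrophage, MHC class II, white adipocyte, mast cell, dendritic cell, natural killer cell, plasma cell and germinal centre lists. Their part in the values of *Coro1a*, *Ptprc* and *Rac2* was not tested. In bulk tissue, fewer cells of a type and less RNA per cell cannot be told apart. Among the 8 libraries the lymphocyte genes were highest most often in WT female 1 (14 of 34) and WT male 2 (11 of 34), which were also the highest for 23.0% and 26.8% of all genes tested.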

How the data were processed

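RNA was extracted from brown adipose tissue, selected for poly A and sequenced in pairs. Per the labels and methods, the authors used bcl2fastq 1.8.4, TopHat 2.0.11 on mm10 (GRCm38) and Bowtie, and deposited FPKM per gene symbol in 1 table per library. The annotation and strand setting are not given in the sources used here, and depth was only estimated from low FPKM values. The FPKM of a library summed to 380558 to 443569.

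Log2 FPKM of the 14675 genes above 0 in all 9 libraries were fitted with limma 3.58.1 (R 4.3.3) with no pseudocount, 1 mean per genotype and sex group, a mean-variance trend and Benjamini-Hochberg adjustment at 0.05. The 10 lymphocyte genes at 0 in a library were compared by exact permutation on log2(FPKM + 0.1). The limma p-values set a difference of group means against the spread between mice within groups, pooled over the groups and shared over genes. A group with 1 mouse adds nothing to that spread. The permutation p-values compare KO with WT libraries without regard to sex. Alternatives changed the pseudocount, filter, scaling, weights, trend, model and libraries. The scripts were tested on simulated data. Gene positions are from GENCODE M21 (GRCm38) and promoters from RefSeq. Tables and figures were made in Python 3.11.15 (pandas 2.3.3, matplotlib 3.10.9).

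The members and gene lists were chosen with earlier results of these data known. Named are the 34 members, *Ghrh* and, from each other list, its first 2 genes, its 3 genes of highest mean FPKM and those called without KO male 1, in so far as a result turns on them. Some genes of these lists are not reported here.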

Additional observations from a re-analysis of the deposited data

Results flagged for a closer look

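In 29 of the 34 genes KO male 1 stood farther above the other 3 KO libraries than Dixon's test for outliers allows. The gap between KO male 1 and the next library, as a share of the range of the 4 on the log2(FPKM + 0.1) scale, was *Cd79a* 0.8867, *Cd79b* 0.8797, *Ms4a1* 0.8296, *Cd22* 0.9782, *Cr2* 0.8872, *Fcer2a* 0.9511, *Pax5* 0.8291, *Cd3d* 0.8952, *Cd3e* 0.9354, *Cd3g* 0.8486, *Cd4* 0.9578, *Cd8a* 0.8585, *Cd8b1* 0.9775, *Lck* 0.8758, *Zap70* 0.9799, *Cd5* 0.91, *Cd28* 0.9423, *Ctla4* 0.8755, *Foxp3* 0.9224, *Icos* 0.928, *Ccr7* 0.9268, *Ltb* 0.9453, *Lat* 0.894, *Cd37* 0.9329, *Ptprc* 0.9905, *Coro1a* 0.9093, *Rac2* 0.9593, *Ikzf1* 0.8995, *Ikzf3* 0.9186. In the WT libraries 4 of 34 genes passed the same test. WT male 2 was far above the others in *Cd22* (0.7193), WT female 1 in *Cd247* (0.7406), and WT male 1 was far below them in *Cd3d* (0.7507) and *Ltb* (0.7808). Chance gives about 1 in 20 such groups where genes and libraries are not chosen beforehand. Here the genes were chosen with earlier results known, and KO male 1 had been set apart before this test. That rate therefore does not apply to the KO libraries, and their values are a description. The genes are also not independent, since they share the same libraries.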

How the results depend on the processing

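No paired analysis was possible because the sample labels name no litter and give each mouse its own number. The part of litter or cage in the differences was not tested. With all 9 libraries the 0 calls among the 24 genes held under the 10 alternatives that kept every library (lowest adjusted p 0.24 to 0.473, limma, except the linear model of the methods, which has none). Leaving out 1 library at a time gave 0 to 20 genes called higher, the 20 without KO male 2. Without KO male 1 it gave 0 to 5 called lower (the 5 without WT male 1), and library weights gave 1. The median log2 difference of the 24 without KO male 1, -0.71, was -0.11 with a pseudocount of 1, -0.16 over all 34 with no filter on low values, and -0.83 to -0.37 with 1 further library left out. In females the median was -0.0887 with a pseudocount of 1 and -1.02 to -0.56 with 1 library left out. With 1 library left out, genes called higher were 0 to 24 for KO minus WT in males (median -0.43 to 6.14), 0 to 22 for the interaction (median 0.0798 to 6.33) and 0 to 23 for male minus female. KO male 2 could not be left out of the fit without KO male 1, since no KO male remains. The 10 genes tested by exact permutation gave 0 calls, but the smallest p is 0.0286 or 0.0476 with 1 further library left out beside KO male 1, so in those settings the count was nearly fixed by the design and says nothing about stability.

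Directions of single genes changed as follows (log2, KO minus WT). With all 9 libraries and the linear model of the methods, whose genotype term is by construction the difference in females, values were *Cd79b* -0.053, *Ms4a1* -1.33, *Cd22* -0.85, *Cd3e* -1.20, *Cd3g* -1.18, *Cd247* -1.21, *Cd4* -0.57, *Cd8a* -1.05, *Lck* -1.28, *Zap70* -0.65, *Cd2* -0.13, *Cd28* -0.55, *Ltb* -0.62, *Cd37* -0.81, *Ptprc* -1.09, *Coro1a* -0.87, *Rac2* -1.10, *Ikzf1* -0.69, *Ikzf3* -1.12. With no interaction term *Cd247* was -0.10. Leaving out 1 library at a time gave *Cd247* -1.16 to 1.19, *Cd79b* -0.051 to 2.95, *Cd22* -1.48 to 2.32, *Cd3e* -0.87 to 2.51, *Cd3g* -0.40 to 2.85, *Cd4* -0.88 to 3.12, *Cd8a* -0.38 to 3.23, *Lck* -0.61 to 2.92, *Zap70* -0.81 to 2.63, *Cd2* -1.04 to 2.96, *Cd28* -0.21 to 2.30, *Cd37* -0.84 to 1.92, *Ptprc* -1.27 to 1.81, *Coro1a* -1.19 to 1.59, *Rac2* -1.07 to 1.84, *Ikzf1* -0.99 to 1.91, *Ikzf3* -0.82 to 2.26. Without KO male 1, the linear model gave *Ms4a1* -1.33, *Ltb* -0.62, no interaction term *Ms4a1* -0.13, *Ltb* -0.15, a pseudocount of 0.1 *Ltb* -0.0170 (with no filter *Ltb* -0.0170), a pseudocount of 1 *Ltb* -0.0349, median centring *Cd79b* 0.12 and quantile normalization *Cd79b* 0.19, *Cd28* 0.14. Leaving out 1 library at a time gave *Ltb* -0.46 to 0.52, *Cd79b* -0.33 to 0.23, *Cd8a* -0.97 to 0.20, *Ms4a1* -0.15 to 0.84, *Fcer2a* -0.087 to 0.40, *Cd28* -0.53 to 0.12. The cause of these changes was not tested, apart from the construction of the linear model and the levels of KO male 1 given above.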
